A study of Mus musculus with 39 samples.

Results

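Amino acid transporters of 7 solute carrier families were followed across 39 lymphomas of Eµ-myc mice, 1 array per tumour. Members were taken by gene symbol: every gene whose symbol starts with Slc1a, Slc3a, Slc6a, Slc7a, Slc36a, Slc38a or Slc43a. Of 18193 genes on the arrays that could be named, 63 were such members, and 28 of them had a mean level above 6 on the log2 scale. By family, 7 Slc1a, 2 Slc3a, 21 Slc6a, 16 Slc7a, 5 Slc36a, 9 Slc38a and 3 Slc43a genes were measured. Slc7a6os, Slc36a1os and Slc6a19os are opposite-strand genes that share only the name of their neighbour and are not transporters.

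All tumours form 1 group in the labels, with the genotype Eµ-myc and the tissue lymphoma, and no normal tissue, treatment, strain, age or sex is given there. In this model the immunoglobulin heavy chain enhancer drives a Myc transgene, so that lymphomas of the B lineage arise. Tumours are numbered as in their titles. Differences between tumours are therefore the only contrast, and the tested question was which transporter genes were higher or lower where Myc was higher or lower. Whether every tumour is from its own mouse is not stated, so the p-values cover the spread between tumours only, which may in part be technical.

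Proliferating cells import amino acids for protein, nucleotide and glutathione synthesis. Slc1a5 brings glutamine into the cell. Slc7a5 takes up leucine and other large neutral amino acids in exchange for an amino acid from inside, and works only as a pair with the heavy chain Slc3a2, also known as CD98. Slc7a6, Slc7a7, Slc7a8, Slc7a10 and Slc7a11 pair with the same heavy chain. Leucine and arginine act on the mTORC1 kinase through sensors. Slc38a9 is an arginine sensor on the lysosome, and Slc36a1 and Slc38a7 also sit in the lysosomal membrane. When amino acids run short, the factor ATF4 raises a set of transporter and synthesis genes through a short DNA element. Myc binds CACGTG, and several amino acid transporter genes are known Myc targets.

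Promoter letters are shown for 4 members whose relation to Myc differs, because the Myc element and the ATF4 element can be read from them directly. Each is the 250 bases before a RefSeq transcript start, build GRCm38.p6, written 5′ to 3′ on the strand of the gene, with matches in capitals. Slc7a6 rose most with Myc among the members and holds neither motif in the window before its first listed start (chr8:106168604-106168853, plus strand).
Slc7a6: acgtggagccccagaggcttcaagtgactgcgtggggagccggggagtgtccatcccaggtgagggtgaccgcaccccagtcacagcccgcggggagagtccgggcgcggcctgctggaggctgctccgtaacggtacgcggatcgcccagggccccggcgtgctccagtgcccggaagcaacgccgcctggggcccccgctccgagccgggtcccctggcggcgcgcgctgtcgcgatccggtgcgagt
Slc38a5, a glutamine carrier, was dim, with levels from 2.85 in tumour 2 to 3.66, all below the array medians of 5.61 to 5.78, and also rose. It holds CACGTG 30 bases before its start (chrX:8271131-8271380, plus strand).
Slc38a5: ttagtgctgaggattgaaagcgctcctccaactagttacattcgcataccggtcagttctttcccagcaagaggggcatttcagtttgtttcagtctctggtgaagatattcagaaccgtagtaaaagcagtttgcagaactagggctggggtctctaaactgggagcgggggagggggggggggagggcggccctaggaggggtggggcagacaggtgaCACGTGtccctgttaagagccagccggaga
Slc36a1 fell with Myc and holds CACGTG 31 bases before its start (chr11:55204090-55204339, plus strand).
Slc36a1: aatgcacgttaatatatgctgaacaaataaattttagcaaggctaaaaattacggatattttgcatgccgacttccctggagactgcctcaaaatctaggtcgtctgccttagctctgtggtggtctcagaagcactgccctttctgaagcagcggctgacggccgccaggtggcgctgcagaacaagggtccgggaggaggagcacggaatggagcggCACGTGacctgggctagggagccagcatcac
Slc7a11, the cystine and glutamate exchanger, fell with Myc and holds the ATF4-type letters TGATGNAAN on each strand, 66 and 48 bases before its start (chr3:50443614-50443863, minus strand).
Slc7a11: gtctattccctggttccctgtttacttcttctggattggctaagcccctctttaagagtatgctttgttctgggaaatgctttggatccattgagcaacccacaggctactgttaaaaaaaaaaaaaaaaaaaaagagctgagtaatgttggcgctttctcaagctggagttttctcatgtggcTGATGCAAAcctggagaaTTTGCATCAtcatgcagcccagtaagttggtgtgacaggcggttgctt

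The motifs searched were CACGTG, which reads alike on both strands, and TGATGNAAN on either strand. CACGTG was found before 9 of 46 members with a listed promoter (19.6%) and before 1854 of 27025 genes with one (6.86%). The 9 were Slc1a6, Slc1a7, Slc36a1, Slc38a5, Slc38a7, Slc43a1, Slc6a16, Slc6a3 and Slc7a14. Of the 9, only Slc38a5 rose and only Slc36a1 fell in the fit on Myc given below. Among the 18 members with a listed promoter and a mean above 6, 3 held CACGTG: Slc36a1, Slc38a7 and Slc43a1. TGATGNAAN was found before 3 of 46 members (6.52%), Slc7a11, Slc7a7 and Slc6a21, and before 1052 genes (3.89%). The promoters of Slc7a5, Slc1a5 and Slc38a1 were not analysed here. Matches are descriptions of the letters, not measured binding.

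Levels are RMA values on a log2 scale, for the probe set with the highest mean of each gene, and a level of one gene cannot be set against that of another. The arrays had medians from 5.61 to 5.78, and pairs of arrays correlated with r from 0.889 to 0.991. Myc had a level of 8.19 in tumour 2, from 10.58 to 12.63 in the other 38 tumours, and a median of 11.92. Tumours 6, 8 and 23 were taken as the 3 highest in Adgre1, a macrophage marker. Their Adgre1 levels were 12.55 to 13.13, against 5.92 to 9.90 in the other 36 tumours. Their Cd79a level, a subunit of the B cell receptor, was 3.95 to 4.18, against 4.83 to 10.13. Of the other markers, Cd22, Vpreb3, Fcrla and Blk were also lower without overlap, and Cd68, Itgam and Marco higher. The remaining B cell and macrophage markers overlapped. Among these, the receptor subunit Cd79b was 11.70 to 12.51 against 9.80 to 12.89, and the macrophage marker Timd4 was 3.98 to 4.57 against 3.87 to 8.26. Tumours 6, 8 and 23, tumour 2 and tumours 5, 19, 26 and 32 had a score of B cell genes below -1 or Myc below 10, and results are given with and without these 8 tumours. A score averages, over the genes of a list, how far the tumour's log2 level lies from the mean of that gene over all tumours. The score of 7 plasmacytoid dendritic cell genes was highest in tumours 32, 5, 19 and 26, at 3.48, 2.86, 1.30 and 1.13. It was 0.95 or lower in every other tumour. This score was not among the covariates used below, and its part in the results was not tested. Salivary gland markers were high in several tumours, with scores up to 7.08 and of 6.32 in tumour 8, and none of the 9 such markers passed the fit on Myc.

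**Figure D1:**
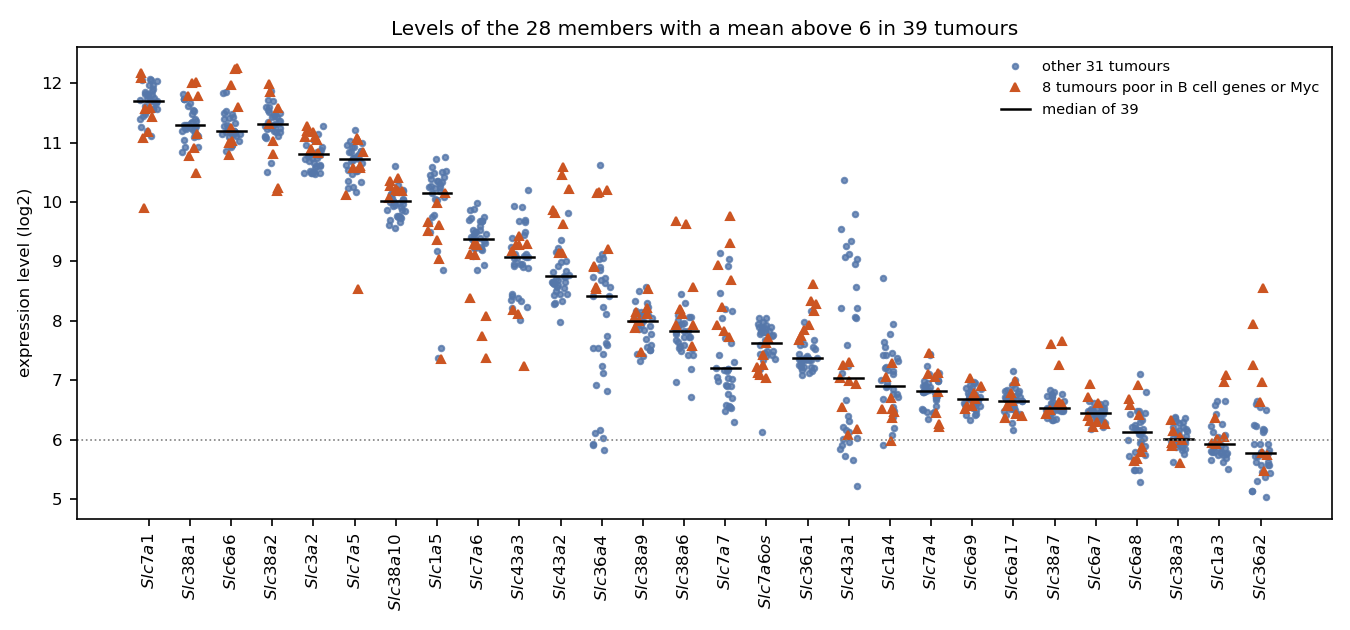
Log2 level of each of the 28 members with a mean above 6, one point per tumour, with the median of the 39 tumours as a black line and the 8 tumours poor in B cell genes or Myc as triangles. Slc36a4 and Slc43a1 spread over the widest ranges, 5.82 to 10.62 and 5.22 to 10.38, and the dotted line marks the level of 6.

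The spread of the members between tumours was close to that of other genes. The SD across tumours was at least 1 in 3 of 63 members (4.76%) and in 1333 of all 18193 genes (7.33%), and the median SD was 0.309 and 0.321. Just inside the threshold on level were Slc38a3 at a mean of 6.04, Slc1a3 at 6.03 and Slc36a2 at 6.01, and just outside were Slc7a8 at 5.94, Slc6a13 at 5.84 and Slc6a2 at 5.80. Of the 35 members below the threshold only Slc6a13 had a level above 8 in any tumour.

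Slc7a5, Slc7a6 and Slc7a1 were lowest in the tumour with the least Myc. This did not hold across the Slc7 family: the dim cationic transporter Slc7a2 was near its highest level there, at 7.28 against a median of 4.86. Slc7a5 ranged from 8.54 in tumour 2 through 10.11 in tumour 8 to 11.20 in tumour 9, with a median of 10.73 and a mean of 10.64 ± 0.43 (SD, n = 39). Slc7a6, which exchanges cationic for neutral amino acids, ranged from 7.38 in tumour 2 to 9.98 in tumour 10, with a median of 9.38 and a mean of 9.27 ± 0.55 (SD, n = 39). Tumours 2, 6, 8 and 23 formed a separate low set for Slc7a6 at 7.38 to 8.39, and the other 35 lay at 8.86 or above. Slc7a1, the cationic amino acid transporter that takes up arginine and lysine, ranged from 9.90 in tumour 2 through 11.07 in tumour 8 to 12.18 in tumour 32, with a mean of 11.63 ± 0.40 (SD, n = 39). Tumour 2 alone was low for Slc7a1, whose probe sets agreed poorly with each other (lowest r 0.13).

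Slc1a5, the glutamine importer, was far lower in 3 tumours than in the others. Tumours 19, 28 and 27 had levels of 7.36, 7.38 and 7.54, and the other 36 lay from 8.86 to 10.75, with a median of 10.14 over all tumours. The second probe set of the gene followed the first (r 0.72). These 3 tumours did not share a low Myc level, which was 11.76, 12.23 and 11.12.

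Of the neutral amino acid carriers of the Slc38 family, Slc38a1 ranged from 10.48 in tumour 2 to 12.02 in tumour 5 and Slc38a2 from 10.18 in tumour 6 and 10.23 in tumour 8 to 11.99 in tumour 26. Both bring glutamine, alanine and other small amino acids into the cell with sodium. Their means were 11.33 ± 0.34 and 11.28 ± 0.39 (SD, n = 39).

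In the fit on Myc, 8 of 63 members rose and 12 fell, beside 18.8% of all 18192 genes that rose and 17.2% that fell (limma, Benjamini-Hochberg adjusted p under 0.05 over all genes; 36.0% in either direction). The transporters Slc7a6, Slc7a5, Slc1a5, Slc7a1 and Slc38a2 rose among members with a mean above 6, as did Slc7a6os, which is not a transporter. Slc7a7, Slc38a6, Slc36a2, Slc43a2, Slc1a3, Slc36a1, Slc6a6 and the heavy chain Slc3a2 fell in the same range of levels, and these include carriers of the cell surface such as Slc43a2, Slc6a6 and Slc1a3. The median slope was 0.0075 over members and 0.014 over all genes. Without the 8 tumours 4 members rose and 5 fell, beside 4.68% and 6.18% of all genes, and with scores of T cells, macrophages, erythroid cells and fibroblasts as covariates 4 rose and 3 fell, beside 6.24% and 4.17%. With a G2/M proliferation score as a covariate 3 rose and 2 fell, beside 1.86% and 2.09%. Without tumour 2 alone 5 rose and 14 fell, beside 15.9% and 16.8%. In bulk tissue, fewer cells of a type and less RNA per cell cannot be told apart.

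The largest rise was that of Slc7a6, by 0.62 ± 0.06 log2 units (SE) per log2 unit of Myc (limma, adjusted p = 1.1e-10). Without the 8 tumours it rose by 0.43 ± 0.09 (limma, adjusted p = 0.0013), and with the scores of other cells as covariates by 0.53 ± 0.08. Within the 35 tumours outside the low set, which was drawn by the gene's own level, r with Myc was 0.706 and rho 0.692. The permutation p was 1e-05, the smallest that can be given, and 3e-05. Adjusted among the all-tumour p-values of the other genes, these were 0.00016 and 0.00089. Slc7a5 rose by 0.46 ± 0.05 in all tumours (limma, adjusted p = 9.4e-09) and by 0.32 ± 0.09 without the 8 tumours (limma, adjusted p = 0.019). Both also rose with the G2/M score as a covariate, Slc7a5 by 0.43 and Slc7a6 by 0.30. In these settings the direction of both was the same. In all tumours r of Slc7a5 with Myc was 0.817 and rho 0.476 (permutation p = 3e-05 and 0.0023, adjusted 0.00032 and 0.015). Without tumours 2 and 8, the farthest from the median of Myc, they fell to 0.462 and 0.386 (permutation p = 0.0043 and 0.019, adjusted 0.022 and 0.096). Without the 8 tumours rho passed for Slc7a6, at 0.648, but not for Slc7a5, at 0.436 (permutation p = 7e-05 and 0.015, adjusted 0.024 and 0.2).

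**Figure D2:**
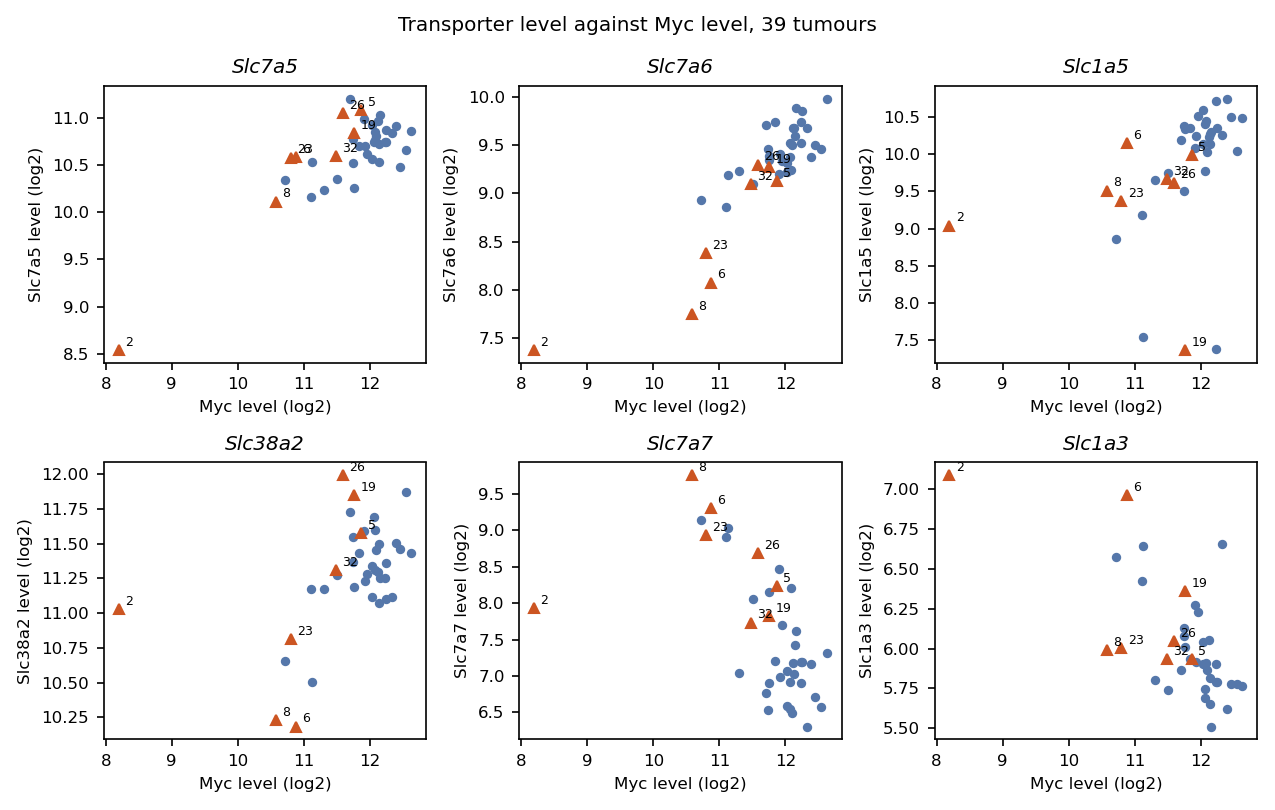
Log2 level of 6 transporter genes against the log2 level of Myc, one point per tumour, with the 8 tumours poor in B cell genes or Myc as numbered triangles. Tumour 2 stands alone at a Myc level of 8.19, and tumours 19, 27 and 28 lie far below the others for Slc1a5.

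Slc1a5 rose by 0.43 ± 0.16 per log2 unit of Myc (limma, adjusted p = 0.034). In all tumours r with Myc was 0.391, which did not pass, and rho 0.606 (permutation p = 0.028 and 0.00011, adjusted 0.075 and 0.0019). Within the 36 tumours outside its low set, which was drawn by the gene's own level, r was 0.731 and rho 0.681. The permutation p was 1e-05, the smallest that can be given, and 2e-05. Adjusted among the all-tumour p-values of the other genes, these were 0.00016 and 0.0007. Neither r at 0.512 nor rho at 0.475 passed without the 8 tumours (permutation p = 0.0059 and 0.0078, adjusted 0.059 and 0.15). Without the 8 tumours, of which 1 is in the low set, the slope was 0.94 ± 0.28 (limma, adjusted p = 0.027), but with the scores of other cells as covariates it was 0.02 ± 0.25 (limma, adjusted p = 0.97). Its slope thus changed most with the set of tumours and covariates among these 5 transporters.

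Slc38a2 rose by 0.25 ± 0.07 (limma, adjusted p = 0.0044) and by 0.36 ± 0.10 without the 8 tumours (limma, adjusted p = 0.014). Its r with Myc was 0.496 but its rho 0.367 did not pass (permutation p = 0.0028 and 0.022, adjusted 0.012 and 0.079). Without tumours 2 and 8 r was 0.561, and without the 8 tumours rho was 0.247 (permutation p = 0.18, adjusted 0.55). When a gene was summarised by averaging its probe sets, Slc38a2 had a slope of 0.18 ± 0.08 (limma, adjusted p = 0.051). Slc7a1 rose by 0.34 ± 0.06 (limma, adjusted p = 4.3e-05), and this rested on tumour 2: without it the slope was 0.14 ± 0.09 (limma, adjusted p = 0.25) and without the 8 tumours 0.01 ± 0.11. Its r with Myc went from 0.651 (rho 0.195; permutation p = 0.0020 and 0.23, adjusted 0.0091 and 0.42) to 0.124 without tumours 2 and 8, so that the relation rests on those samples. Slc38a1 did not pass, with a slope of 0.16 ± 0.07 (limma, adjusted p = 0.070), but rose by 0.20 ± 0.07 with the mean of all its probe sets (limma, adjusted p = 0.023). Slc7a6os, next to Slc7a6 on the opposite strand, rose by 0.22 ± 0.07, and the dimmer Slc38a5 and Slc6a20b by 0.13 ± 0.04 and 0.11 ± 0.04. These 2 dim genes were named after their values were seen. Slc7a6os, Slc38a5 and Slc6a20b were not among the members that rose without the 8 tumours.

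**Figure D3:**
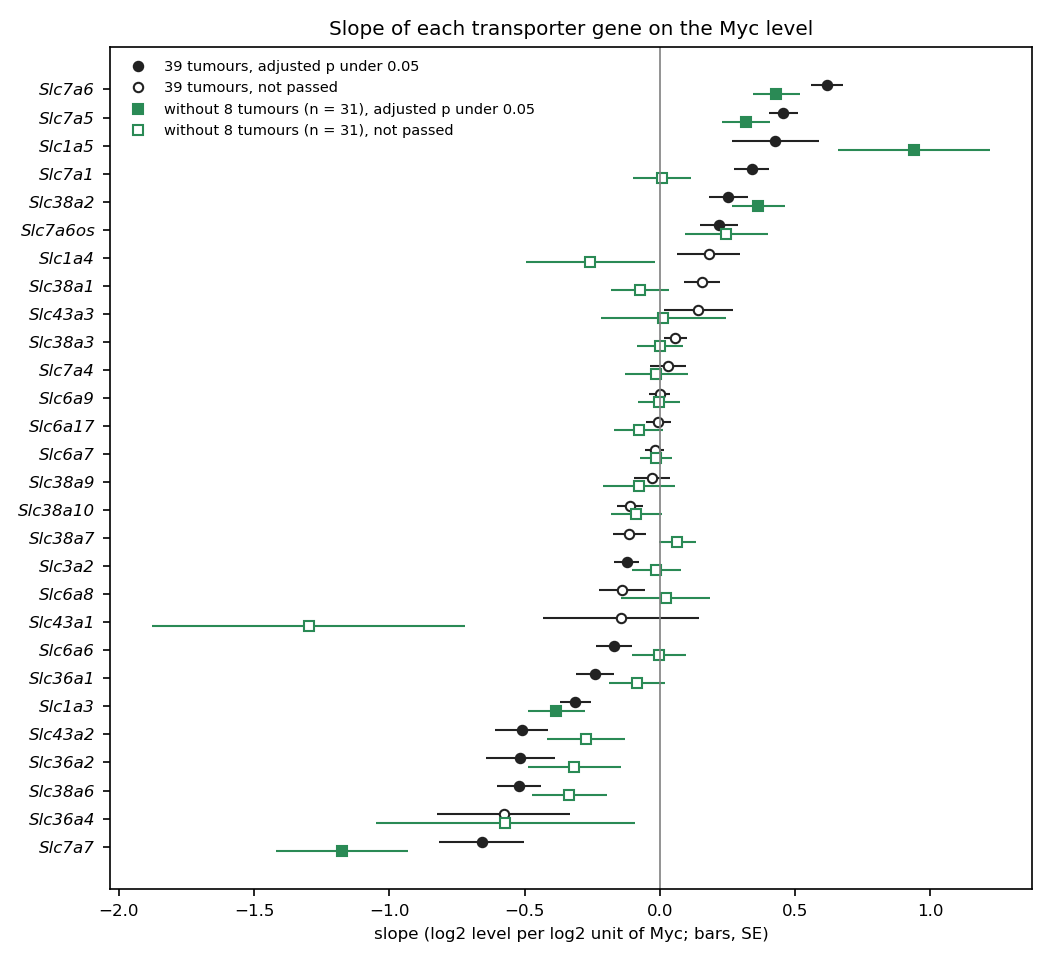
Slope of each of the 28 members on the Myc level, in log2 units per log2 unit of Myc with SE bars, in all 39 tumours (circles) and without the 8 tumours poor in B cell genes or Myc (squares), filled where the limma adjusted p was under 0.05. Slc7a6, Slc7a5, Slc1a5 and Slc38a2 lie above 0 and Slc1a3 and Slc7a7 below 0 with filled symbols in both.

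Slc7a7 fell most steeply among the members with a mean above 6. It is an exporter of cationic amino acids, known from intestine, kidney and macrophages. Its level ranged from 6.30 in tumour 36 to 9.31 in tumour 6 and 9.76 in tumour 8, with a median of 7.20. The slope was -0.66 ± 0.16 (limma, adjusted p = 0.00084) and -1.18 ± 0.24 without the 8 tumours (limma, adjusted p = 0.0019), but -0.28 ± 0.24 with the scores of other cells as covariates (limma, adjusted p = 0.51). Slc1a3, a glutamate transporter best known from glia, ranged from 5.51 to 7.09 in tumour 2 and fell by 0.31 ± 0.06 per unit of Myc (limma, adjusted p = 2.8e-05), and by 0.38 ± 0.11 without the 8 tumours. With the scores of other cells as covariates its slope was -0.23 ± 0.09 (limma, adjusted p = 0.082). For Slc7a7 and Slc1a3, r with Myc passed without the 8 tumours, at -0.655 and -0.562 (permutation p = 0.00015 and 0.0014, adjusted 0.0083 and 0.026). Their rho there did not, at -0.359 and -0.521 (permutation p = 0.048 and 0.0028, adjusted 0.32 and 0.1).

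Slc38a6 was highest in tumours 2 and 23, at 9.67 and 9.63, and 8.57 or lower elsewhere. It fell by 0.52 ± 0.08 (limma, adjusted p = 1.7e-06), and its slope was -0.33 ± 0.14 without the 8 tumours (limma, adjusted p = 0.12). Slc43a2, a carrier of large neutral amino acids, was highest in tumours 8 and 6 at 10.59 and 10.46 with a median of 8.76, and fell by 0.51 ± 0.10. Its slope was -0.27 ± 0.14 without the 8 tumours (limma, adjusted p = 0.25). Slc36a1 fell by 0.24 ± 0.07, which without tumour 2 was -0.26 ± 0.11 (limma, adjusted p = 0.059). Slc6a6, the taurine transporter, fell by 0.17 ± 0.07 and had a slope of 0.00 without the 8 tumours (limma, adjusted p = 0.99), and of -0.10 ± 0.04 with the mean of all its probe sets (limma, adjusted p = 0.062). Neither its r of -0.383 nor its rho of -0.164 with Myc passed (permutation p = 0.023 and 0.32, adjusted 0.064 and 0.52).

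**Figure D4:**
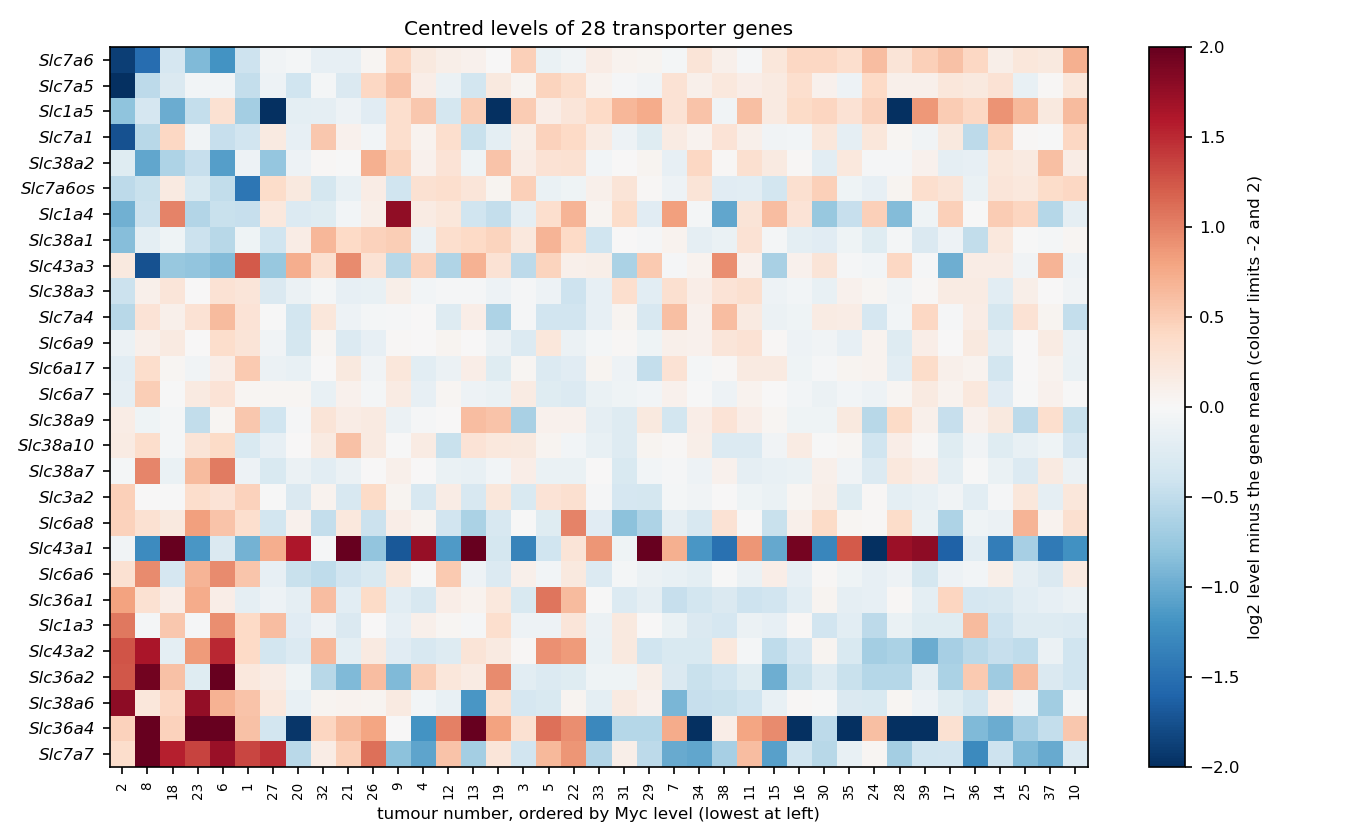
Log2 level minus the gene's mean for the 28 members (rows, ordered by slope on Myc) in the 39 tumours (columns, ordered by Myc level), with colours limited at -2 and 2. Among the 5 tumours lowest in Myc, at the left, tumours 2, 8, 23 and 6 are low for Slc7a6 and high for Slc43a2, while tumour 18 is not, with 8.93 for Slc7a6 and 8.76 for Slc43a2.

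Slc3a2, the heavy chain, varied little. It ranged from 10.47 in tumour 29 to 11.28 in tumour 2 around a mean of 10.82 ± 0.24 (SD, n = 39), so that the tumour lowest in Slc7a5 and Slc7a6 was the highest in their partner. Its slope on Myc was -0.12 ± 0.05 (limma, adjusted p = 0.035), which without tumour 2 was -0.11 ± 0.07 (limma, adjusted p = 0.26). In all tumours the slope of Slc7a5 on the Slc3a2 level was -0.26 ± 0.29 (limma, adjusted p = 0.55) and that of Slc7a6 was -0.98 ± 0.34 (limma, adjusted p = 0.032), but without tumour 2 Slc7a6 had a slope of -0.61 ± 0.31 (limma, adjusted p = 0.19). The large SE leaves the relation of Slc7a5 to its partner poorly determined.

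Along the Slc3a2 level 9 of the other 62 members rose and 3 fell, beside 10.9% and 13.8% of 18192 genes (24.7% in either direction). Slc7a7, Slc36a4, Slc43a2, Slc38a6, Slc36a1, Slc6a8 and Slc6a6 rose, with slopes from 0.62 to 2.20 log2 units per log2 unit of Slc3a2, as did the dimmer Slc6a13 and Slc7a2. Slc7a6, Slc7a6os and Slc43a1 fell. Without the 8 tumours no member passed in limma (9 at an unadjusted p under 0.05), beside 2.35% of all genes. With the scores of other cells as covariates none passed either (10 at an unadjusted p under 0.05), beside 0.132% of all genes. With each array centred on the median of its gene values, 0 of 18192 genes passed in limma, 2557 of them and 7 of the members at an unadjusted p under 0.05.

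Macrophage markers moved with Slc3a2. Of 19 macrophage markers 13 rose with its level and none fell, and on Myc 2 rose and 13 fell. The mean level of the 19 markers ran from 8.41 to 10.30 in the 8 tumours and from 7.72 to 9.48 in the other 31. Slc3a2 itself rose by 0.32 ± 0.04 per unit of the macrophage score (limma, adjusted p = 4.1e-07), by 0.39 ± 0.06 without the 8 tumours (limma, adjusted p = 0.00037) and by 0.39 ± 0.07 with the G2/M score as a covariate (limma, adjusted p = 0.020).

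Along the macrophage score 17 members rose and 6 fell, beside 18.2% and 19.3% of 18174 genes (37.5% in either direction). Slc36a4, Slc7a7, Slc36a2, Slc43a2, Slc38a6, Slc6a6, Slc6a8, Slc36a1, Slc1a3, Slc3a2 and Slc38a7 rose among members with a mean above 6. Slc7a6, Slc7a5, Slc7a6os, Slc7a1 and Slc38a2 fell. By robust regression Slc7a5, Slc7a1, Slc38a2 and Slc38a7 did not pass (limma, adjusted p = 0.091, 0.20, 0.074 and 0.33). Without the 8 tumours 3 members rose, Slc3a2, Slc6a6 and the dim arginine transporter Slc7a2, beside 3.67% of genes, and 1 fell, the opposite-strand gene Slc36a1os, beside 2.61%. Slc6a6 ranged from 10.79 to 12.25, and was 11.98 to 12.25 in tumours 6, 8 and 23 and 11.85 or lower in the other 36. It rose by 0.38 ± 0.07 per unit of score and by 0.29 ± 0.09 without the 8 tumours (limma, adjusted p = 0.049). Slc38a7 split the same tumours from the rest, at 7.26 to 7.67 against 6.33 to 6.84, and without the 8 tumours its slope was -0.06 ± 0.07. The dim Slc6a12 did so too, at 5.01 to 5.69 against 3.42 to 4.79, and the other members overlapped. The share of all genes without overlap was not computed, so the split does not set these members apart from other genes. Slc36a4 lay at 10.15 to 10.20 in these 3 tumours and at 5.82 to 10.62 in the others. Macrophages in the tissue and tumour cells that carry macrophage markers cannot be told apart here. How far either accounts for these levels was not tested.

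**Figure D5:**
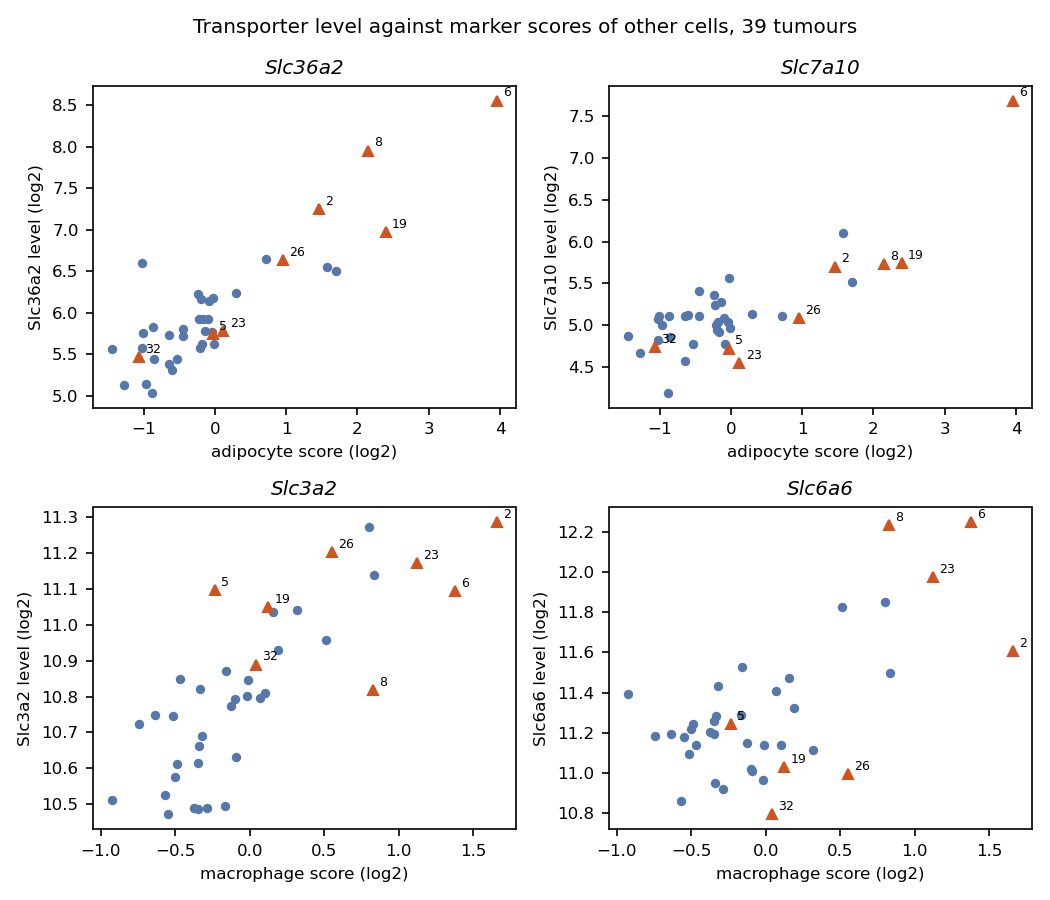
Log2 level of Slc36a2 and Slc7a10 against the adipocyte score, and of Slc3a2 and Slc6a6 against the macrophage score, one point per tumour, with the 8 tumours poor in B cell genes or Myc as numbered triangles. Tumour 6 has the highest adipocyte score, 3.96, and the highest Slc36a2 and Slc7a10 levels.

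Slc36a2 and Slc7a10, both known as surface proteins of fat cells, followed fat cell markers. Slc36a2 ranged from 5.03 to 7.25 in 37 tumours and was 7.95 in tumour 8 and 8.55 in tumour 6, with a median of 5.78. Slc7a10, a small neutral amino acid transporter named here after its values were seen, ranged from 4.18 to 6.10 in 38 tumours and was 7.69 in tumour 6. The adipocyte score of 8 genes, among them Adipoq and Fabp4, reached 3.96 in tumour 6, with 2.40 for tumour 19 and 2.15 for tumour 8. Slc36a2 rose by 0.57 ± 0.05 per unit of this score (limma, adjusted p = 6.9e-11) and Slc7a10 by 0.40 ± 0.05 (limma, adjusted p = 1.1e-07). Both passed without the 8 tumours as well, at 0.41 ± 0.08 and 0.30 ± 0.07 (limma, adjusted p = 0.015 and 0.046), where 36 genes in all passed (0.198%). In all tumours 9 members rose and 2 fell along the score, beside 13.1% and 10.1% of 18185 genes (23.2% in either direction). This fit was added after the levels were seen, and the part of fat tissue in the fall of Slc36a2 with Myc, -0.52 ± 0.13 (limma, adjusted p = 0.0013), was not tested.

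The amino acid response was followed by a score of 24 genes that ATF4 is known to raise, such as Ddit3, Trib3, Psat1 and Sesn2, with no member among them. The score was highest in tumour 18, at 0.60, and then in the tumours highest in Adgre1, 6, 23 and 8, at 0.56, 0.52 and 0.43. Along it 6 members rose and 1 fell, beside 5.99% and 4.39% of 18169 genes (10.4% in either direction). Slc1a4, a carrier of alanine, serine and cysteine, ranged from 5.91 in tumour 38 to 8.72 in tumour 9 with a median of 6.91, and rose by 0.93 ± 0.31 per unit of score (limma, adjusted p = 0.048). It rose by 1.71 ± 0.30 without the 8 tumours (limma, adjusted p = 0.0040), and passed with either set of covariates. With the mean of all its probe sets the slope was 0.75 ± 0.28 (limma, adjusted p = 0.087), and by robust regression it was 0.93 ± 0.37 (limma, adjusted p = 0.078). Slc43a3, which is known as a carrier of purine bases rather than amino acids, ranged from 7.24 in tumour 8 to 10.21 in tumour 1 and fell by 1.57 ± 0.27 (limma, adjusted p = 0.0013), and by 1.35 ± 0.33 without the 8 tumours (limma, adjusted p = 0.027). Slc36a4, Slc7a7, Slc6a6, Slc6a13 and Slc6a12 also rose, none of them without the 8 tumours. Without tumour 2, which had a response score of -0.24, 12 members rose and 3 fell, beside 10.2% and 9.77% of all genes. Slc3a2 rose there by 0.40 ± 0.13 (limma, adjusted p = 0.021). With arrays centred on the median, Slc43a3 was the 1 member that passed, beside 0.110% of all genes.

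Other genes of the pathway went in both directions with Myc. Of the 24 amino acid response genes 5 rose and 9 fell, beside 18.8% and 17.2% of all genes. Those that rose include the enzymes of serine and cysteine metabolism Cth, Phgdh, Shmt2 and Psph, with slopes of 0.76 ± 0.27, 0.76 ± 0.19, 0.68 ± 0.07 and 0.42 ± 0.10. Those that fell include the stress factors Atf3, Nupr1 and Cebpb and the receptor Vldlr, with slopes of -0.96 ± 0.28, -0.89 ± 0.27, -0.59 ± 0.13 and -0.74 ± 0.13. Without the 8 tumours none of the list rose, and the starvation sensor Sesn2 and the response genes Trib3 and Atf5 fell, by 0.65 ± 0.14, 0.36 ± 0.11 and 0.44 ± 0.14 (1 rising at an unadjusted p under 0.05 in limma). With the scores of other cells as covariates 2 rose and 1 fell, and with the G2/M score none passed in limma (1 rising and 1 falling at an unadjusted p under 0.05).

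Of 16 genes of glutamine use 9 rose with Myc and none fell (none at an unadjusted p under 0.05 in limma either), beside 18.8% of all genes that rose. Cad, Ppat, Ctps and Pfas, which use glutamine nitrogen for nucleotides, rose by 0.73 ± 0.07, 0.65 ± 0.07, 0.63 ± 0.08 and 0.62 ± 0.07. Of the 16, 5 rose without the 8 tumours and 5 with the scores of other cells as covariates. With the G2/M score as a covariate none passed in limma, with 5 rising at an unadjusted p under 0.05. Of 27 genes of mTORC1 and its amino acid sensors 8 rose, Mtor by 0.48 ± 0.15 and Mios by 0.35 ± 0.05 among them, and 3 fell, Lamtor4 by 0.26 ± 0.08, Rragc by 0.21 ± 0.06 and Lamtor1 by 0.20 ± 0.05, beside 18.8% and 17.2% of all genes. Rheb and Akt1s1 rose without the 8 tumours, and none of the 27 fell (5 at an unadjusted p under 0.05 in limma). With the scores of other cells as covariates 1 rose and none fell, and with the G2/M score 2 rose and none fell (5 and 2 falling at an unadjusted p under 0.05). The arginine sensor Slc38a9, with levels from 7.32 to 8.57, had a slope of -0.03 ± 0.07 on Myc (limma, adjusted p = 0.77).

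Several members varied widely with no slope on Myc that passed. Slc43a1, a carrier of leucine and other neutral amino acids, ranged from 5.22 in tumour 24 to 10.38 in tumour 13 with a median of 7.04, and its slope was -0.14 ± 0.29 (limma, adjusted p = 0.74). Slc36a4 ranged from 5.82 in tumour 28 to 10.62 in tumour 13 with a median of 8.42, and its slope was -0.58 ± 0.25 (limma, adjusted p = 0.064), passing without tumour 2 at -1.16 ± 0.36 (limma, adjusted p = 0.010). Its r with Myc in all tumours was -0.350 and its rho -0.451 (permutation p = 0.028 and 0.0044, adjusted 0.075 and 0.024), so that its rank correlation passed. Slc6a13, a transporter of GABA and taurine, was 9.60 in tumour 14 and 8.75 in tumour 23, with a median of 5.21.

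Members with narrow ranges made up the rest of those above the threshold. Slc38a10, Slc7a4, Slc6a9 (the glycine transporter GlyT1), Slc6a17, Slc6a7 (the proline transporter), Slc6a8 (the creatine transporter) and Slc38a3 had SDs from 0.15 to 0.42, and none passed the fit on Myc. Slc38a10 had a slope of -0.11 ± 0.05 (limma, adjusted p = 0.062), and r with Myc was -0.370 and rho -0.471 (permutation p = 0.020 and 0.0028, adjusted 0.058 and 0.017), so that its rank correlation passed. Without tumours 2 and 8 r was -0.368, and without tumour 2 alone Slc38a10 fell by 0.19 ± 0.07 (limma, adjusted p = 0.030). Probe sets of Slc38a10 and of Slc6a6 ran against each other in part (lowest r -0.11 and -0.04), so their values hold for the probe set with the highest mean.

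A few members below the threshold were raised in single tumours, named after their values were seen. Slc7a11 was 6.63 in tumour 2 and 4.73 or lower in the others, and fell with Myc by 0.63 ± 0.08 (limma, adjusted p = 3.4e-08), and by 0.25 ± 0.09 without tumour 2 (limma, adjusted p = 0.029). Slc6a20a, a proline transporter, was 5.87 in tumour 2 with a median of 2.95 and fell by 0.61 ± 0.11 (limma, adjusted p = 1.1e-05). Both fell also without the 8 tumours, by 0.49 ± 0.10 and 0.92 ± 0.18. Tumour 2 had the highest T cell and macrophage scores, 2.97 and 1.66, the lowest G2/M score, -2.49, and an adipocyte score of 1.46. These values stand beside its extreme levels of Slc7a11, Slc6a20a, Slc7a1, Slc7a5 and Slc7a6, and their part in them was not tested. The mean level of the 11 T cell markers was 5.39 to 9.15 in the 8 tumours and 4.79 to 8.43 in the other 31. On Myc 9 of these 11 markers fell and none rose, and the part of T cells in the falls was not tested; with T cells among the covariates the slopes were -0.70 ± 0.12 and -0.48 ± 0.15.

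The direction of weak slopes depended on scaling. Centring on the median used the median of the gene values of each array, not that of all its probe sets. The gene medians lay from -0.165 to 0.294 around the median of all gene values. With each array so centred, the median slope of all genes on Myc moved from 0.014 to 0.107. Then 32 members rose and 7 fell, beside 50.1% and 12.8% of all genes. Of those, 9110 genes rose and 2337 fell, against 3411 and 3138 in the values as deposited. Slc7a6, Slc7a5, Slc1a5 and Slc38a2 kept their direction in each scaling tried. Centring on the median moved the median slope upward, so it could not test a rise. Of the genes that fell, Slc43a2, Slc38a6, Slc7a7, Slc1a3 and Slc36a2 still had an r with Myc that passed under it. That of Slc3a2 went from -0.402 to -0.126 and that of Slc36a1 from -0.495 to -0.340 (permutation p = 0.46 and 0.038, adjusted 0.52 and 0.059). That of Slc6a6 went from -0.383 to -0.198 and passed in neither.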

How the data were processed

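The authors deposited a log2 value for every probe set, computed by RMA (affy), per the submitters' processing notes; software versions and how many arrays were normalized together are not given. Quantile normalization hides a change in total RNA. Of 45101 probe sets, 34958 named 1 gene in the platform annotation, 932 named several and 9211 were not listed; 34754 matched by Entrez identifier to the RefSeq table of GRCm38.p6. For each of 18193 genes the probe set of highest mean was used, and 46 members matched a promoter in the RefSeq sequence table.

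Each gene was fitted on Myc, on Slc3a2 or on a score with limma 3.58.1 (lmFit, eBayes with trend; R 4.3.3), genes of a score being left out; tests are 2-sided, adjusted over all genes by Benjamini-Hochberg, and "rose" or "fell" means an adjusted p under 0.05. Correlations with Myc used 100000 permutations per gene over 18192 genes (adjusted values likewise). They were repeated within clusters where a 2-part mixture (mclust 6.1.1) improved BIC by more than 10 and its smaller part held 3 or more tumours. In a cluster only that gene was tested, and its p was adjusted among the all-tumour p-values of the other genes. The members, lists and tests were chosen with earlier results of these data known. Members with a mean above 6 are named, and below it the 3 nearest the threshold and any above 8 in a tumour. Of other lists, up to 4 called genes with the largest slopes per direction are named. The fits were tested on simulated data. Alternatives were other probe set summaries, scalings, level filters, left-out tumours, covariates and fits; leaving out tumour 2 and the adipocyte fit were added after the data were seen. The number of arrays limits the precision.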

Additional observations from a re-analysis of the deposited data

How the results depend on the processing

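Directions and calls of single genes mostly held with the mean of all probe sets, a level filter, centring on brighter genes, eBayes without trend and robust regression. Counts moved by over 1.5 times in the following settings, all genes first and members second. On Myc they were 11447 and 39 with arrays centred on the median, 1975 and 9 without the 8 tumours, 1894 and 7 with scores of other cells as covariates, and 719 and 5 with the G2/M score. On Slc3a2 they were 0 and 0 centred on the median, 428 and 0 without the 8 tumours, 2202 and 7 without the 2 tumours farthest from the median, 24 and 0 with other cells, 124 and 0 with G2/M, and 2899 genes without tumour 2. On the amino acid response score they were 20 and 1 centred on the median, 477 and 2 without the 8, 482 and 2 without the 2 farthest, 48 and 2 with other cells, 249 and 4 with G2/M, 3093 genes by robust regression, and 3632 and 15 without tumour 2. On the macrophage score they were 10494 and 38 centred on the median, 1141 and 4 without the 8, 4318 and 12 without the 2 farthest, 4005 and 12 with other cells, and 28 and 1 with G2/M. On the adipocyte score they were 7 members among genes above 6, 36 and 2 without the 8, 634 and 4 without the 2 farthest, 155 and 2 with other cells, and 237 and 2 with G2/M. By r with Myc 11207 genes passed centred on the median and 1605 without the 8 tumours, against 5989. Fewer tumours lower the power of a fit; otherwise the cause was not tested.

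Slopes that turned sign, where called in either fit, were these. On Myc, Slc6a9 was 0.088 centred on the median; Slc3a2 was 0.089 and Slc36a1 0.0020 with other cells; Slc6a6 was 0.27, Slc3a2 0.067, Slc7a6os -0.11 and Slc36a2 0.076 with G2/M. On Slc3a2 with other cells, Slc6a6 was -0.37, Slc7a6 1.06, Slc43a2 -0.25, Slc36a4 -0.61 and Slc7a6os 0.040, and with G2/M Slc7a6 was 0.23. On the macrophage score without the 8 tumours, Slc7a1 was 0.19 and Slc38a7 -0.062; Slc7a1 was 0.017 without the 2 farthest; with G2/M Slc7a1 was 0.30, Slc38a2 0.058, Slc7a5 0.21 and Slc7a6os 0.073. On the adipocyte score without the 8 tumours, Slc38a7 was -0.015. The r with Myc centred on the median was 0.415 for Slc6a9 and 0.359 for Slc6a7.

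No paired analysis was possible because all tumours form 1 group. Limits: quantile-normalized arrays show no change in total RNA, differences of dim genes are understated near background, transgenic and native Myc were not separated here, and slopes are associations across tumours whose makeup differs.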

Other observations

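Slc7a5 and Slc7a1 also rose with the amino acid response score once the G2/M score was a covariate, by 0.67 ± 0.17 and 0.67 ± 0.16 per unit (limma, adjusted p = 0.036 and 0.025), and not in all tumours without it, at 0.16 ± 0.26 and 0.19 ± 0.24 (limma, adjusted p = 0.74 and 0.66). Slc7a3, a cationic amino acid transporter below the threshold, was 7.19 in tumour 26 and 6.87 in tumour 12 with a median of 5.01, and Slc7a2 was 7.28 in tumours 2 and 18 with a median of 4.86. These genes were chosen after their values were seen.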
